A study of Homo sapiens with 48 samples.

Results

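The TGF-β and BMP ligands, receptors and antagonists described here are 10 genes of the 29744 in the deposited table, chosen by name. They are the ligand genes TGFB1, TGFB2, TGFB3, INHBA, BMP4 and GDF15, the receptor genes TGFBR1 and TGFBR2, and the antagonist genes GREM1 and FST. All 10 had a count in at least 1 library. TGFB3 reached at most 7 counts in a library and failed the filter on low counts, so 9 of the 10 were tested.

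The genes were measured by bulk RNA-seq in 48 libraries of CRL-4001 cells, an immortalized human skin fibroblast line. The cells carried mNeonGreen knocked in at IL11 as a fluorescent reporter (IL11mNG), in a line grown from sorted single cells. In the CRISPRko arm they expressed Cas9 with a non-targeting guide RNA (H47_Ctrl) or a guide against GLIS3 (H47_KO). In the CRISPRa arm they expressed dCas9-VP64, a Cas9 that does not cut and is joined to a transcriptional activator, with a non-targeting or a GLIS3 guide (VP64_Ctrl and VP64_A). Both arms used selected bulk populations. Each of the 4 groups of cells was collected without cytokine (0 h) and after 6, 12 and 24 h with 10 ng/ml TGFβ and IL-1β, in 3 libraries per condition. The transcripts are the cells' own, since the added TGFβ was protein. The study's general statement on replication describes cell culture replicates as independent and biological, while the labels of these libraries do not say how they were grown, and p-values measure the spread between them.

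The labels disagreed with each other. The cell line field of all 48 libraries, controls and CRISPRa cells included, reads as Cas9-positive and knocked out for GLIS3. In the CRISPRa arm the titles and the descriptions name opposite groups as the control, and the groups are called here by their descriptions. GLIS3, the targeted gene, ranged from 13.5 to 38 CPM (counts scaled to the library total) in the 12 libraries of VP64_A and from 2.31 to 5.29 in those of VP64_Ctrl, and the groups did not overlap. This goes with the descriptions and against the titles, so every direction given for the CRISPRa arm holds for the libraries labelled VP64_A by their descriptions. In the CRISPRko arm GLIS3 ranged from 0.146 to 2.46 CPM in H47_KO and from 1.55 to 8.63 in H47_Ctrl. Its log2 fold change in H47_KO was −2.55 at 0 h (adjusted p = 0.035 in edgeR) and −1.80, −1.21 and −1.17 at 6, 12 and 24 h, where it did not pass. The 0 h value rests on 2, 1 and 3 counts in H47_KO. With 3 counts taken as the floor for H47_KO, the mean of H47_Ctrl stood 4.15-fold above that floor. The counting error of H47_Ctrl, at 15, 9 and 8 counts, is not covered by this value. A cut made by Cas9 need not lower the transcript, so GLIS3 counts do not measure how many cells were edited.

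TGF-β family ligands are secreted as dimers. Each dimer joins type II receptors such as TGFBR2 with type I receptors such as TGFBR1, which phosphorylate SMAD proteins that then enter the nucleus. TGF-β and activin signal mainly through SMAD2 and SMAD3, and BMPs through SMAD1, SMAD5 and SMAD9. Antagonists work outside the cell: gremlin 1, the product of GREM1, binds BMPs, and follistatin, the product of FST, binds activins. In fibroblasts the TGF-β branch is known for driving matrix production, whereas IL-1β acts through NF-κB and AP-1.

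TGFB2 and INHBA were the members that rose in all 4 groups of cells at every time, so the 250 bases upstream of their annotated starts are given first. They come from RefSeq on GRCh38.p14, 5′ to 3′ on the gene's strand, in lower case with the SMAD box CAGACA in capitals. TGFB2 (chr1:218345336-218444619, plus strand) lies downstream of chr1:218345086-218345335, where GENCODE places exons of TGFB2-AS1 on the other strand. The INHBA window, chr7:41703091-41703340, lies inside the annotated span of the gene (chr7:41667168-41705834, minus strand), before the RefSeq start and in an intron of its longer transcripts.
TGFB2 upstream: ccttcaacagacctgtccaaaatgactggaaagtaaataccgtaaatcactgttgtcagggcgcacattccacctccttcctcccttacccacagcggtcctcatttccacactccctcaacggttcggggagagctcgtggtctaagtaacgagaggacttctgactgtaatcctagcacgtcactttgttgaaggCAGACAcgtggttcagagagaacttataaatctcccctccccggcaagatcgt
INHBA upstream: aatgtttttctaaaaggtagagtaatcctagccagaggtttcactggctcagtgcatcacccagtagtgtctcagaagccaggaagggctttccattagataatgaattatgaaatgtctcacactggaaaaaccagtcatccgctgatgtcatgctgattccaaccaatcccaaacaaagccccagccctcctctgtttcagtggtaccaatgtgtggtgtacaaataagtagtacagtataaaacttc

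The motifs searched on both strands were the SMAD box CAGACA, the AP-1 site TGANTCA, the CRE site TGACGTCA, the GLIS site TGGGGGGT and the NF-κB consensus. The TGFB2 window held 1 SMAD box, 53 bases upstream of the start, and the INHBA window held none of the 5 motifs. Matches were not limited to members that rose. The SMAD box was also in windows of BMP4 (1 of 3 starts), TGFBR1 (2 of 8) and GREM1 (1 of 2), the NF-κB consensus in those of TGFBR1 (3 of 8) and FST, and the AP-1 site in that of FST. Of 35116 RefSeq promoters, 13.6% held the SMAD box in the same 250 bases, 6.57% the AP-1 site, 1.65% the CRE site, 1.33% the GLIS site and 5.21% the NF-κB consensus. A match is a description of letters and was not tested as a site. Exons of genes on the other strand share bases with exons of TGFB2 (701 bases with TGFB2-AS1), BMP4 (506), GREM1 (367 with GREM1-AS1), INHBA (248 with INHBA-AS1), TGFB1 (215 with HNRNPUL1) and TGFB3 (163 with TGFB3-AS1). The strand used in counting is not given in the sources used here, so reads over these bases cannot be told apart. TGFB2 also shares 1371 exonic bases with TGFB2-OT1 on its own strand, which strand would not separate. INHBA-AS1 itself had at most 3 counts in any library.

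The libraries held 2485059 to 6750532 estimated counts in H47_Ctrl, 2761335 to 8542400 in H47_KO, 2321990 to 9971965 in VP64_Ctrl and 3197084 to 10661004 in VP64_A. All 10 fibroblast markers checked, such as VIM and COL1A1, were detected in all 48 libraries, summing to 11386 to 32104 TPM (counts scaled for transcript length and library). Of markers of other cells, EPCAM, KDR, CD3E and LYZ were at 0 throughout, whereas KRT14 reached 640 counts in a library, TEK 57 and CD14 8. The 6 leukocyte markers summed to 13.7 to 69.7 TPM, led by CD68, which fibroblasts can also express, and the leukocyte gene PTPRC had at most 17 counts in a library. The 5 epithelial markers summed to 0 to 78.9 TPM, nearly all of it KRT14. The 5 endothelial markers summed to 0 to 2.3 TPM and the 5 smooth muscle markers to 56.3 to 280 TPM. SMTN and ACTG2 led the smooth muscle sum, while MYH11 and DES had at most 9 and 3 counts in a library. The mean smooth muscle sum was higher after cytokine in every group of cells. Its values at 0, 6, 12 and 24 h were 106, 170, 188 and 167 TPM in H47_Ctrl, 143, 227, 170 and 185 in H47_KO, 66.9, 120, 116 and 116 in VP64_Ctrl, and 70.7, 141, 119 and 98 in VP64_A. The mean leukocyte sum went from 40.5 to 60.5 TPM in VP64_Ctrl and from 17.9 to 31.6 in VP64_A between 0 and 24 h. Over the same time the mean endothelial sum went from 0.167 to 1.19 TPM in H47_Ctrl and from 0.275 to 1.55 in H47_KO. In VP64_Ctrl it went from 0.266 to 0.0937 TPM and in VP64_A from 0.0319 to 0.0884. The part of these markers in the changes over time was not tested.

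A few libraries stood apart from the other 2 of their condition. In replicate 3 of VP64_Ctrl at 0 h the 50 most abundant genes held 23.1% of counts, against 32.6% and 34.9%, and the fibroblast markers summed to 11386 TPM, against 17227 and 19319. The same share was 30.7% in replicate 3 of H47_KO at 0 h, against 39.3% and 39%, and 31.4% in replicate 3 of H47_KO at 24 h, against 44.4% and 39%. In replicate 1 of H47_Ctrl at 6 h it was 33.8%, against 40.9% and 42%. A comparison is called here when its adjusted p in edgeR was under 0.05. Without this VP64_Ctrl library, comparisons of members with 0 h called in VP64_Ctrl numbered 12 in place of 13, and those called between VP64_A and VP64_Ctrl 6 in place of 7. In H47_KO 12 were called without its 0 h library and 13 without its 24 h library, beside 13 with all libraries, and in H47_Ctrl 12 with and without its 6 h library.

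Per length, on the TPM scale, GREM1 was the most abundant member. Its mean level over the 16 conditions ran from 472 to 1512 TPM with a median of 913. INHBA had the widest range as a fold, from 0.292 TPM in its lowest condition to 540 in its highest. TGFB2 ran from 0.446 to 16.4 TPM, BMP4 from 0.0419 to 14.7 and GDF15 from 0.177 to 10.3. The receptors varied less, TGFBR2 from 3.56 to 6.97 TPM and TGFBR1 from 0.676 to 2.45. FST ran from 0.949 to 8.02 TPM, TGFB1 from 0.703 to 3.26 and TGFB3 from 0 to 0.463. TGFB1, the isoform most studied in fibrosis, was thus below TGFB2 when each is taken at its highest, in VP64_Ctrl at 0 h and in H47_KO at 24 h. The order was not the same in every condition. TGFB2 was at 0.446 TPM in VP64_A at 0 h, below the lowest mean of TGFB1 in any condition (0.703).

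**Figure D1:**
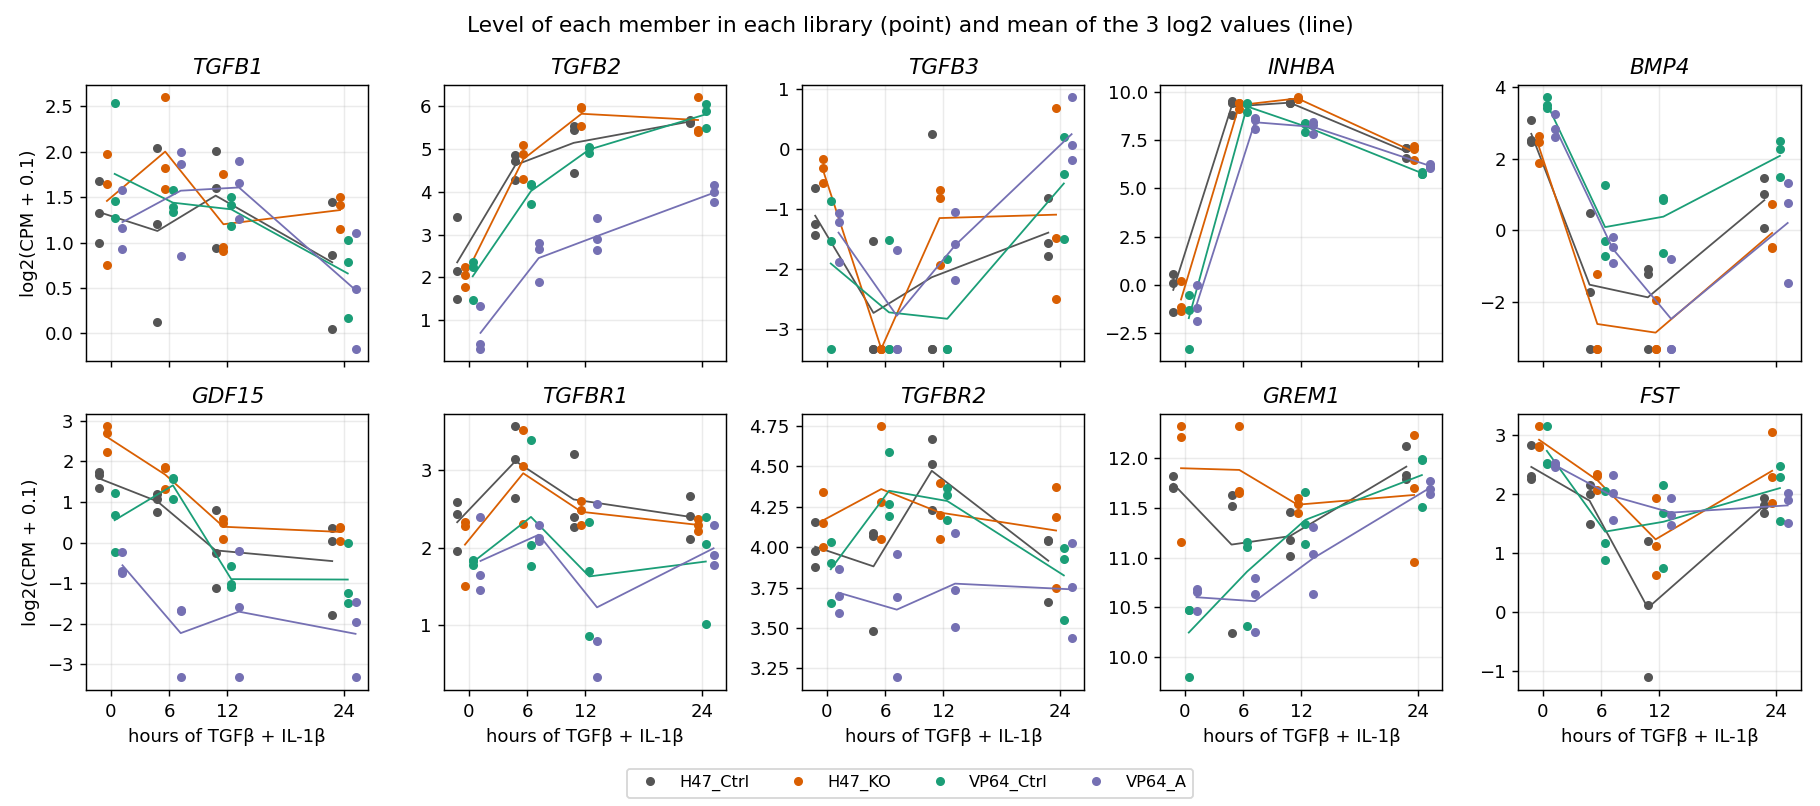
Level of each of the 10 members as log2(CPM + 0.1) against hours with TGFβ and IL-1β, with 1 point per library, lines through the mean of the 3 log2 values of a condition, a colour for each of the 4 groups of cells and a separate vertical scale in each panel. INHBA rises steeply by 6 h and is lower again at 24 h, BMP4 dips at 6 and 12 h, and the VP64_A line of TGFB2 runs below the other 3 groups.

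Of the 27 comparisons of tested members with 0 h in each group of cells, 10 to 13 were called. In H47_Ctrl 12 comparisons passed an adjusted p of 0.05 in edgeR's quasi-likelihood test (6 higher, 6 lower), in H47_KO 13 (7 and 6), in VP64_Ctrl 13 (8 and 5) and in VP64_A 10 (7 and 3). The split depended on the method. With limma on log2(TPM + 1) it was 6 higher and 8 lower in H47_Ctrl, 6 and 10 in H47_KO, 8 and 9 in VP64_Ctrl and 6 and 3 in VP64_A. Of the 9 tested members, those called at 6, 12 and 24 h were 3, 5 and 4 in H47_Ctrl, where 15.9%, 19.6% and 10.3% of all genes tested were called. They were 4, 5 and 4 in H47_KO (23.9%, 27.4% and 15.8% of all genes), 4, 5 and 4 in VP64_Ctrl (28.8%, 26.8% and 16%) and 3, 3 and 4 in VP64_A (17.4%, 19.7% and 13.6%). The median log2 fold change of the members lay between −0.29 and 0.62 in these 12 comparisons, with members moving in both directions, and that of all genes lay between −0.10 and 0.02. In bulk libraries, fewer cells of a kind and less RNA per cell cannot be told apart. The members were chosen with earlier results of these data in view, so these shares describe the list and are no test of it.

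TGFB2, a TGF-β isoform secreted in latent form, rose at every time in every group. CPM values of members are scaled by TMM. In H47_Ctrl its 3 libraries were at 10.5, 4.35 and 2.70 CPM at 0 h, and at 29.2, 26.5 and 19.4 at 6 h. They were at 21.7, 46.4 and 43.9 CPM at 12 h and at 48.7, 50 and 51.6 at 24 h. Every stimulated library thus lay above every 0 h library, and the 3 libraries at 24 h were the most alike. The log2 fold changes over 0 h at 6, 12 and 24 h were 1.99 ± 0.31 (SE), 2.56 ± 0.32 and 2.98 ± 0.31 (adjusted p = 1.2e-05, 1.7e-07 and 9.4e-09). Replicate 1 at 0 h was the highest of its group, and without it the 3 values were 2.77, 3.34 and 3.76. In H47_KO the libraries were at 4.07, 3.32 and 4.61 CPM at 0 h and at 63.3, 46.4 and 62.4 at 12 h, a log2 fold change of 3.83 ± 0.32. They were at 34, 29.7 and 19.7 CPM at 6 h and at 74.0, 41.9 and 43.6 at 24 h, changes of 2.78 ± 0.34 and 3.73 ± 0.32. No stimulated library of H47_KO overlapped with 0 h.

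In the CRISPRa arm TGFB2 also rose in both groups, from a lower start in VP64_A. VP64_Ctrl libraries were at 5.05, 2.65 and 4.64 CPM at 0 h, at 17.8, 13.1 and 18 at 6 h, at 30, 32.8 and 32.4 at 12 h and at 59.7, 66.7 and 44.7 at 24 h. VP64_A libraries were at 2.40, 1.26 and 1.15 CPM at 0 h, at 6.88, 6.19 and 3.62 at 6 h, at 7.29, 10.3 and 6.10 at 12 h and at 13.6, 17.8 and 15.8 at 24 h. Even at 24 h no VP64_A library reached the level that VP64_Ctrl had at 12 h. The log2 fold changes at 6, 12 and 24 h were 1.99 ± 0.26, 2.96 ± 0.25 and 3.80 ± 0.25 in VP64_Ctrl and 1.71 ± 0.33, 2.25 ± 0.31 and 3.18 ± 0.30 in VP64_A. All 6 were called in edgeR, the weakest at an adjusted p of 0.00027 for VP64_A at 6 h, which was not called by limma on log2(TPM + 1) (0.64, adjusted p = 0.16).

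INHBA, which encodes the βA subunit of activin A, changed most. In H47_Ctrl it stood at 1.35, 0.966 and 0.270 CPM at 0 h and at 442, 689 and 728 at 6 h. It was at 720, 686 and 683 CPM at 12 h and at 137, 134 and 93.9 at 24 h. The 24 h libraries lay below all those of 6 and 12 h and above all those of 0 h, and the step from 12 to 24 h was not tested. The 0 h libraries held few reads, 17 counts pooled in H47_Ctrl, so folds are given as ratios of pooled counts with exact 95% intervals that cover counting error only. In H47_Ctrl the ratios to 0 h at 6, 12 and 24 h were 603 (376 to 1036), 709 (442 to 1218) and 123 (76.6 to 212).

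The other groups also rose in INHBA, from 12, 9 and 11 pooled counts at 0 h in H47_KO, VP64_Ctrl and VP64_A. At 0 h the H47_KO libraries were at 0.354, 0.288 and 1.05 CPM, those of VP64_Ctrl at 0, 0.580 and 0.299 and those of VP64_A at 0.172, 0.880 and 0.329. H47_KO libraries were at 678, 688 and 555 CPM at 6 h, at 805, 838 and 793 at 12 h and at 146, 130 and 87.4 at 24 h, a ratio of 1372 (785 to 2655) at 12 h. VP64_Ctrl libraries were at 496, 687 and 658 CPM at 6 h, at 336, 243 and 319 at 12 h and at 54.0, 58.0 and 53.5 at 24 h, a ratio of 1980 (1042 to 4332) at 6 h. VP64_A libraries were at 268, 405 and 377 CPM at 6 h, at 314, 222 and 353 at 12 h and at 71.5, 67.3 and 77.1 at 24 h, a ratio of 811 (453 to 1625) at 6 h. In all 4 groups the libraries of 24 h lay below those of 6 h and 12 h. All 12 comparisons with 0 h were called in edgeR, with log2 fold changes from 6.94 ± 0.35 (H47_Ctrl, 24 h) to 10.94 ± 0.39 (VP64_Ctrl, 6 h). Leaving out one 0 h library moved these by more than 1.5 times in 3 groups: without replicate 3 of H47_KO the change at 12 h was 11.23, without replicate 2 of VP64_A the change at 6 h was 10.46, and without replicate 1 or 2 of VP64_Ctrl that at 6 h was 10.28 or 12.22.

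BMP4, a BMP ligand that signals through SMAD1, SMAD5 and SMAD9, moved the other way. H47_Ctrl libraries stood at 8.37, 5.47 and 5.67 CPM at 0 h, at 1.29, 0.199 and 0 at 6 h, at 0.368, 0.327 and 0 at 12 h and at 2.66, 0.935 and 1.90 at 24 h. The lowest mean was at 12 h, but the libraries of 6 and 12 h overlapped, and the 6 h mean rests on replicate 1, at 1.29. The 24 h libraries had come back above all those of 12 h. Pooled counts fell from 117 to 10, 2 and 24, or 10.8-fold (5.69 to 23.2), 28.8-fold (7.80 to 240.8) and 3.26-fold (2.09 to 5.30) lower than at 0 h. H47_KO libraries stood at 5.48, 6.06 and 3.55 CPM at 0 h, at 0, 0 and 0.323 at 6 h, at 0, 0.156 and 0 at 12 h and at 1.56, 0.607 and 0.623 at 24 h, with 100, 1, 1 and 22 pooled counts. VP64_Ctrl libraries stood at 11.3, 10.6 and 13 CPM at 0 h, at 0.716, 0.505 and 2.32 at 6 h, at 1.78, 0.547 and 1.71 at 12 h and at 2.69, 5.51 and 4.73 at 24 h (352, 11, 18 and 72 pooled counts). In every one of these groups all stimulated libraries lay below all libraries of 0 h. VP64_A libraries did so too, from 6.01, 9.43 and 7.08 CPM at 0 h to 0.625, 0.427 and 0.776 at 6 h, 0, 0 and 0.469 at 12 h and 0.261, 2.40 and 1.58 at 24 h (188, 8, 2 and 18 pooled counts). By pooled counts every group was thus lowest at 6 or 12 h and partly back at 24 h.

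Fitted log2 fold changes of BMP4 at 24 h were −1.72 ± 0.56 in H47_Ctrl, −2.37 ± 0.57 in H47_KO, −1.47 ± 0.39 in VP64_Ctrl and −2.42 ± 0.48 in VP64_A, and all 12 comparisons with 0 h were called in edgeR. The call in H47_Ctrl at 24 h (adjusted p = 0.045) did not pass when any 1 of its 6 libraries was left out (adjusted p = 0.071 to 0.20), with DESeq2 (0.065) or with limma on log2(TPM + 0.1) (0.13). That in VP64_Ctrl at 24 h did not pass without replicate 1 at 24 h (−1.20, adjusted p = 0.084), and the H47_KO value was −2.97 without replicate 1 at 24 h. At 6 and 12 h the fitted values rest on few reads. They ran from −5.89 to −3.14, and 1 library could move them. Without replicate 1 of 6 h the H47_Ctrl value went from −3.43 to −5.60, and without replicate 3 of 6 h or replicate 2 of 12 h the H47_KO values went from −5.09 to −7.68 and from −5.89 to −7.66. In VP64_A at 12 h the value of −5.59 became −4.62 without replicate 2 and −8.49 without replicate 3.

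GDF15, a divergent family member induced by cell stress whose receptor GFRAL is found in the brainstem, was called lower than at 0 h only in the CRISPRko arm. H47_Ctrl libraries stood at 2.43, 3.06 and 3.24 CPM at 0 h, at 2.01, 1.59 and 2.21 at 6 h, at 0.736, 1.64 and 0.363 at 12 h and at 0.190, 0.935 and 1.19 at 24 h. H47_KO libraries stood at 4.60, 7.21 and 6.45 CPM at 0 h, at 2.40, 3.47 and 3.55 at 6 h, at 0.968, 1.40 and 1.31 at 12 h and at 1.17, 1.21 and 0.934 at 24 h. In both groups all stimulated libraries lay below those of 0 h. The log2 fold change in H47_KO was −2.3 ± 0.46 at 12 h and −2.48 ± 0.46 at 24 h (adjusted p = 0.00026 and 0.00015). In H47_Ctrl it was −1.60 ± 0.56 at 12 h and −1.98 ± 0.56 at 24 h (0.041 and 0.018). The H47_Ctrl call at 12 h did not pass when any 1 of the 3 libraries of 0 h, or replicate 1 or 3 of 12 h, was left out (0.055 to 0.19), with DESeq2 (0.080) or without the filter (0.099), and was −2.34 without replicate 2 of 12 h. That at 24 h did not pass without replicate 2 or 3 of 0 h or replicate 1 of 24 h (0.0509 to 0.18), and was −1.38 without replicate 1 and −2.68 without replicate 3 of 24 h. In the CRISPRa arm GDF15 was called at no time against 0 h. VP64_Ctrl libraries stood at 2.23, 0.746 and 1.5 CPM at 0 h and at 0.898, 0.324 and 0.256 at 24 h, with 46, 33, 6 and 9 pooled counts at the 4 times. At 6 h they stood at 2.86, 2.02 and 2.90, a ratio of pooled counts to 0 h, scaled for depth, of 1.75 (exact 95% interval 1.08 to 2.79, counting error only), with overlap of the libraries and no call (0.78 ± 0.57, 0.32). By the same measure VP64_Ctrl was 3.50-fold lower (1.49 to 10.0) at 12 h and 2.92-fold lower (1.41 to 6.78) at 24 h, also without a call. VP64_A libraries stood at 0.515, 0.755 and 0.494 CPM at 0 h and at 0.261, 0 and 0.158 at 24 h, with 15, 2, 3 and 2 pooled counts.

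TGFB1 was called in none of the 12 comparisons with 0 h. In H47_Ctrl it was at 3.11, 2.41 and 1.89 CPM at 0 h and at 1.71, 0.935 and 2.62 at 24 h, and the libraries overlapped. Its largest change was −1.19 ± 0.44 in VP64_Ctrl at 24 h (adjusted p = 0.065), from 2.32, 2.65 and 5.69 CPM at 0 h to 1.94, 1.62 and 1.02. In H47_Ctrl at 24 h the 95% interval of the change, −1.56 to 0.67, includes both a 2-fold drop and no change. TGFB3 lay at 0 to 1.72 CPM in single libraries, too few reads for the test in edgeR. Pooled counts at 24 h were 11 against 6 at 0 h in VP64_Ctrl and 14 against 7 in VP64_A. Scaled for depth, these were 3.21-fold (exact 95% interval 1.09 to 10.6, counting error only) and 3.93-fold (1.48 to 11.5) higher. In H47_Ctrl and H47_KO the 24 h counts were 1.56-fold (0.36 to 9.36) and 2.07-fold (0.81 to 5.68) lower.

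The 2 receptor genes were called in 1 comparison with 0 h. TGFBR2, the type II receptor that binds TGF-β first, was at 14.6, 17.7 and 15.7 CPM at 0 h and at 12.6, 16.4 and 16.4 at 24 h in H47_Ctrl. It was called in no comparison, and its 24 h changes had 95% intervals of −0.57 to 0.37 in H47_Ctrl, −0.45 to 0.42 in H47_KO, −0.49 to 0.39 in VP64_Ctrl and −0.43 to 0.48 in VP64_A. A 2-fold change at 24 h lies outside all 4 intervals. TGFBR1, the type I kinase, was called only in H47_KO at 6 h, from 4.95, 2.74 and 4.74 CPM to 8.23, 11.4 and 4.84. The groups overlapped there, with a log2 fold change of 0.94 ± 0.35 (adjusted p = 0.048). The call did not pass with DESeq2 (0.052), without the filter (0.081), with only the groups compared (0.0503), with a replicate block (0.055) or with limma on log2(TPM + 1) or log2(TPM + 0.1) (0.47 and 0.43). It did not pass either without replicate 2 or 3 of 0 h or replicate 1 or 2 of 6 h (0.052 to 0.25). In H47_Ctrl at 6 h TGFBR1 was at 11.8, 8.76 and 6.14 CPM against 5.94, 5.31 and 3.78 at 0 h, a log2 fold change of 0.82 ± 0.32 that did not pass (0.087).

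**Figure D2:**
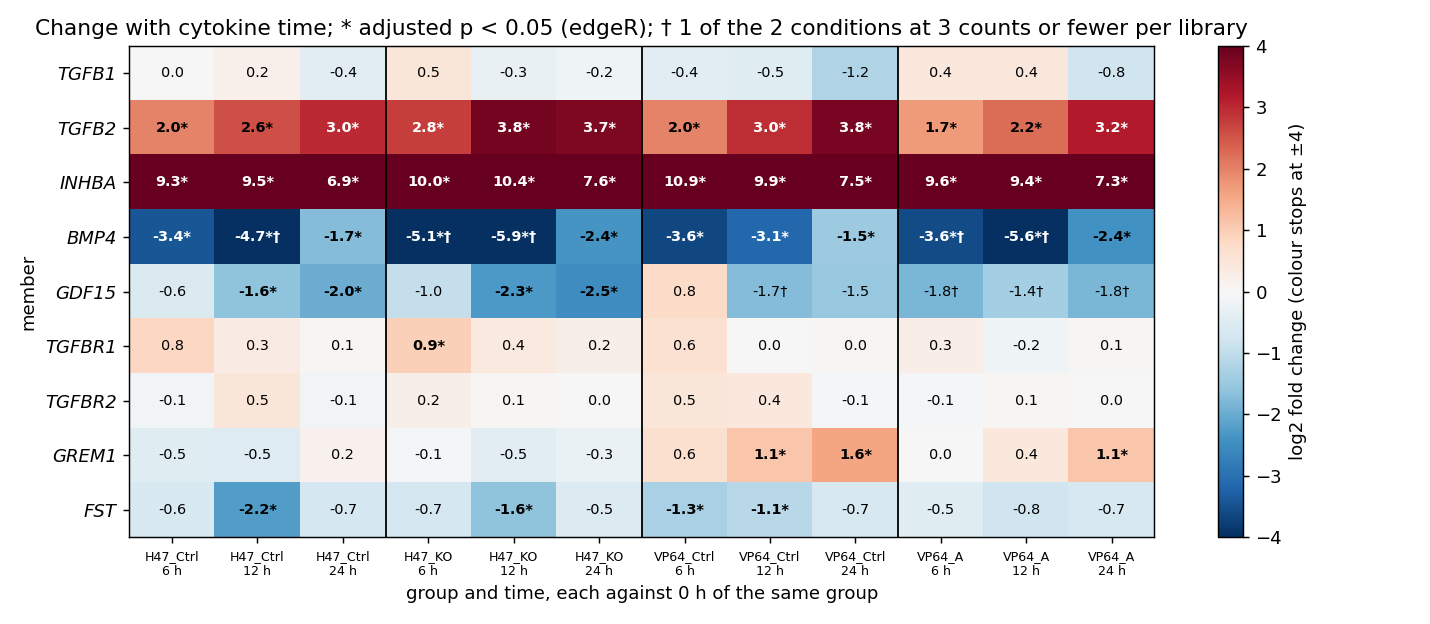
Heatmap of the fitted log2 fold change of the 9 tested members (rows) at 6, 12 and 24 h against 0 h of the same group (columns), with the value in each cell, colours that stop at 4 in either direction, a star at an adjusted p under 0.05 and a dagger where 1 of the 2 conditions had at most 3 counts in each library. TGFB2 and INHBA are higher and BMP4 lower in all 12 columns, and TGFBR2 has no star.

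The antagonists differed from each other. GREM1 was called only in the CRISPRa arm. VP64_Ctrl libraries stood at 1422, 1417 and 887 CPM at 0 h, at 1273, 2209 and 2280.4 at 6 h, at 2584, 2257 and 3251 at 12 h and at 4064, 4083 and 2922 at 24 h. VP64_A libraries stood at 1615, 1640.0 and 1414 CPM at 0 h and at 3493, 3190.0 and 3319 at 24 h. All 24 h libraries lay above all 0 h libraries in both groups. The log2 fold change was 1.12 ± 0.25 at 12 h and 1.57 ± 0.26 at 24 h in VP64_Ctrl (adjusted p = 0.0011 and 2.3e-05) and 1.10 ± 0.25 at 24 h in VP64_A (0.0022). Without replicate 3 of VP64_Ctrl at 0 h, which stood apart and held the 887, the VP64_Ctrl changes were 0.90 and 1.36 (0.0096 and 0.00025). In the CRISPRko arm GREM1 began higher, at 3612, 3349 and 3334 CPM in H47_Ctrl at 0 h, and was at 3550.2, 4461 and 3653 at 24 h. Between these times the H47_Ctrl libraries lay at 1212 to 3176 CPM (6 h) and 2068 to 2814 (12 h). All were below those of 0 h, by 1.53-fold and 1.45-fold in pooled counts scaled for depth, with no call. The change of GREM1 at 24 h was 0.18 ± 0.33 in H47_Ctrl and −0.26 ± 0.33 in H47_KO, and neither passed. Both signs were unsettled, at −0.05 in H47_Ctrl with limma on log2(TPM + 1) and 0.01 in H47_KO without replicate 3 of 24 h. The arms were fitted apart, so the difference between arms was not tested.

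FST, the activin-binding antagonist, was lower at 12 h in 3 groups. H47_Ctrl libraries stood at 7.02, 4.67 and 4.86 CPM at 0 h and at 2.21, 0.981 and 0.363 at 12 h, a log2 fold change of −2.22 ± 0.50 (adjusted p = 0.0012), or −2.98 without replicate 1 of 12 h. H47_KO libraries stood at 6.89, 8.80 and 6.98 CPM at 0 h and at 1.45, 3.73 and 2.09 at 12 h (−1.61 ± 0.39, 0.0020). VP64_Ctrl libraries stood at 5.62, 5.72 and 8.83 CPM at 0 h, at 2.15, 4.04 and 1.74 at 6 h and at 1.58, 4.38 and 3.13 at 12 h (−1.28 ± 0.38 and −1.12 ± 0.36, adjusted p = 0.010 and 0.018). No library of these conditions overlapped with 0 h. The VP64_Ctrl calls did not pass without replicate 1 of 6 h (−1.05, 0.082), or at 12 h without replicate 3 of 0 h (−0.92, 0.079) or replicate 1 of 12 h (−0.79, 0.13). VP64_A libraries stood at 5.41, 5.66 and 5.60 CPM at 0 h and at 2.69, 3.03 and 3.75 at 12 h, with no overlap but no call (−0.80 ± 0.36, 0.12). At 24 h FST was called in no group.

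Next, the groups with and without a GLIS3 guide were compared at matched times, to see whether these genes differed with GLIS3. Between H47_KO and H47_Ctrl none of the 36 comparisons of tested members was called in edgeR or by DESeq2, and 1, 1, 1 and 0 members had an unadjusted p under 0.05 at 0, 6, 12 and 24 h. Of all genes tested, 0.301%, 0.319%, 0.0821% and 0.210% were called at these times, so a share of 0 of 9 members is near that of all genes. These shares rest on few genes and moved with single libraries: the 33 genes called at 0 h became 2 without replicate 1 of H47_Ctrl and 52 without replicate 3 of H47_KO. For TGFB2 the log2 differences were −0.65 (95% interval −1.44 to 0.13), 0.13 (−0.48 to 0.75), 0.61 (0.04 to 1.18) and 0.09 (−0.46 to 0.65), and libraries overlapped at every time. The sign at 0 h turned without replicate 1 of H47_Ctrl (0.12), that at 6 h without replicate 3 of H47_Ctrl or replicate 1 of H47_KO (−0.02 and −0.06) and with limma on log2(TPM + 1) (−0.26), and that at 24 h without replicate 1 of H47_KO (−0.23). INHBA at 12 h lay at 805, 838 and 793 CPM in H47_KO, all above the 720, 686 and 683 of H47_Ctrl, but the log2 difference was 0.22 ± 0.22 (adjusted p = 0.86). GDF15 also did not overlap between the groups at 0 and 6 h, at 1.08 ± 0.42 and 0.69 ± 0.49 (0.28 and 0.64), nor did GREM1 at 6 h, at 0.67 ± 0.33 (0.46), where replicate 1 of H47_Ctrl stood apart at 1212 CPM. With 3 libraries on each side, libraries can fail to overlap without a difference between groups. The share of all genes without overlap was not counted, so non-overlap without a call only describes the libraries.

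Between VP64_A and VP64_Ctrl 7 of the 36 comparisons were called, all lower in VP64_A. They were 1, 3, 2 and 1 of the 9 tested members at 0, 6, 12 and 24 h, against 9.41%, 3.76%, 4.31% and 4.13% of all genes called. The share at 0 h stands for 1033 genes, and 491 were called without replicate 3 of VP64_Ctrl, which stood apart. TGFB2 accounted for 4 of the 7 and was lower in VP64_A at every time, with no overlap of libraries. Its log2 differences at the 4 times were −1.24 ± 0.31, −1.52 ± 0.28, −1.95 ± 0.25 and −1.85 ± 0.23 (adjusted p = 0.0096, 0.00049, 2.5e-06 and 1.5e-06). The values at 12 and 24 h were called under all alternatives tried. The 0 h call did not pass with only the groups compared (0.080), with limma on log2(TPM + 1) (0.083), or without replicate 2 or 3 of VP64_A or replicate 1 of VP64_Ctrl (0.053 to 0.069). The 6 h call did not pass with limma on log2(TPM + 1) or log2(TPM + 0.1) (0.093 and 0.079).

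The other 3 calls were 1 time each of INHBA, GDF15 and BMP4. INHBA at 6 h was at 268, 405 and 377 CPM in VP64_A and at 496, 687 and 658 in VP64_Ctrl, a log2 difference of −0.81 ± 0.22 (adjusted p = 0.025). This call did not pass without replicate 1 or 3 of VP64_A or replicate 2 or 3 of VP64_Ctrl (0.057 to 0.16), or with limma on log2(TPM + 0.1) (0.57), and at 24 h VP64_A was the higher group, with no overlap but no call (0.39 ± 0.23, 0.46). GDF15 at 6 h was at 0.208, 0.213 and 0 CPM in VP64_A and at 2.86, 2.02 and 2.90 in VP64_Ctrl. Its pooled counts, 2 against 33, gave a ratio of 17.4 (exact 95% interval 4.45 to 149.5, counting error only), with an adjusted p of 0.0050 in edgeR. In VP64_A GDF15 held 15, 2, 3 and 2 pooled counts at the 4 times, so it passed the filter on low counts through VP64_Ctrl. The call thus rests on the group that let the gene be tested. BMP4 at 12 h was at 0, 0 and 0.469 CPM in VP64_A and at 1.78, 0.547 and 1.71 in VP64_Ctrl, 2 counts against 18, a ratio of 9.68 (2.32 to 86.0). Its adjusted p of 0.047 did not pass with DESeq2 (0.058), with limma on log2(TPM + 1) (0.23), or without replicate 1 or 2 of VP64_A or replicate 1 or 3 of VP64_Ctrl (0.087 to 0.34), and its fitted value of −3.08 was −2.10 without replicate 2 and −5.99 without replicate 3 of VP64_A. Also without overlap but not called were TGFBR2 at 6 and 12 h (−0.71 ± 0.22 and −0.52 ± 0.22, adjusted p = 0.071 and 0.21) and BMP4 at 0 and 24 h (−0.63 ± 0.36 and −1.59 ± 0.51, 0.31 and 0.080). Here too the share of all genes without overlap was not counted, so these values only describe the libraries.

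Marker genes also differed between the 2 CRISPRa groups. The 5 epithelial markers summed to 71.2 ± 12.8 (SD, n = 3), 55.9 ± 8.55, 56.4 ± 15.7 and 16.4 ± 2.65 TPM in VP64_A at 0, 6, 12 and 24 h, against 11.5 ± 1.73, 6.32 ± 3.79, 4.51 ± 2.74 and 6.41 ± 3.15 in VP64_Ctrl, and nearly all of it was KRT14, a keratin of basal epithelial cells. EPCAM was at 0, KRT5 at no more than 1 count and CDH1 at no more than 2 counts in every library. In the CRISPRko arm the sum stayed at or below 0.572 TPM in every condition mean. The leukocyte markers, led by CD68, also differed between these groups. They summed to 17.9 ± 2.19, 16.4 ± 3.94, 23.6 ± 8.80 and 31.6 ± 4.47 TPM in VP64_A at the 4 times, lower at each than the 40.5 ± 7.27, 27.8 ± 9.10, 40.3 ± 4.72 and 60.5 ± 8.08 in VP64_Ctrl. Between H47_KO and H47_Ctrl they stood at 33.1 ± 9.10 against 18.7 ± 1.82 TPM at 0 h, at 22.9 ± 3.37 against 22.3 ± 7.10 at 6 h, at 32.8 ± 9.33 against 24 ± 6.95 at 12 h and at 44.3 ± 11.1 against 19.2 ± 3.50 at 24 h. The fibroblast markers summed to 20728 ± 1239, 18114 ± 2528, 18485 ± 1516 and 17544 ± 99.6 TPM in VP64_A at the 4 times, against 15977 ± 4112, 20186 ± 2623, 21901 ± 740 and 21971 ± 951 in VP64_Ctrl. At 0 h they summed to 21732 ± 2135 TPM in H47_KO against 28099 ± 1469 in H47_Ctrl, and at 6, 12 and 24 h to 22958 ± 2748, 24437 ± 1301 and 24130 ± 6994 against 25444 ± 1540, 25487 ± 1391 and 28967 ± 1446. The part of these differences in the TGFB2 result was not tested.

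**Figure D3:**
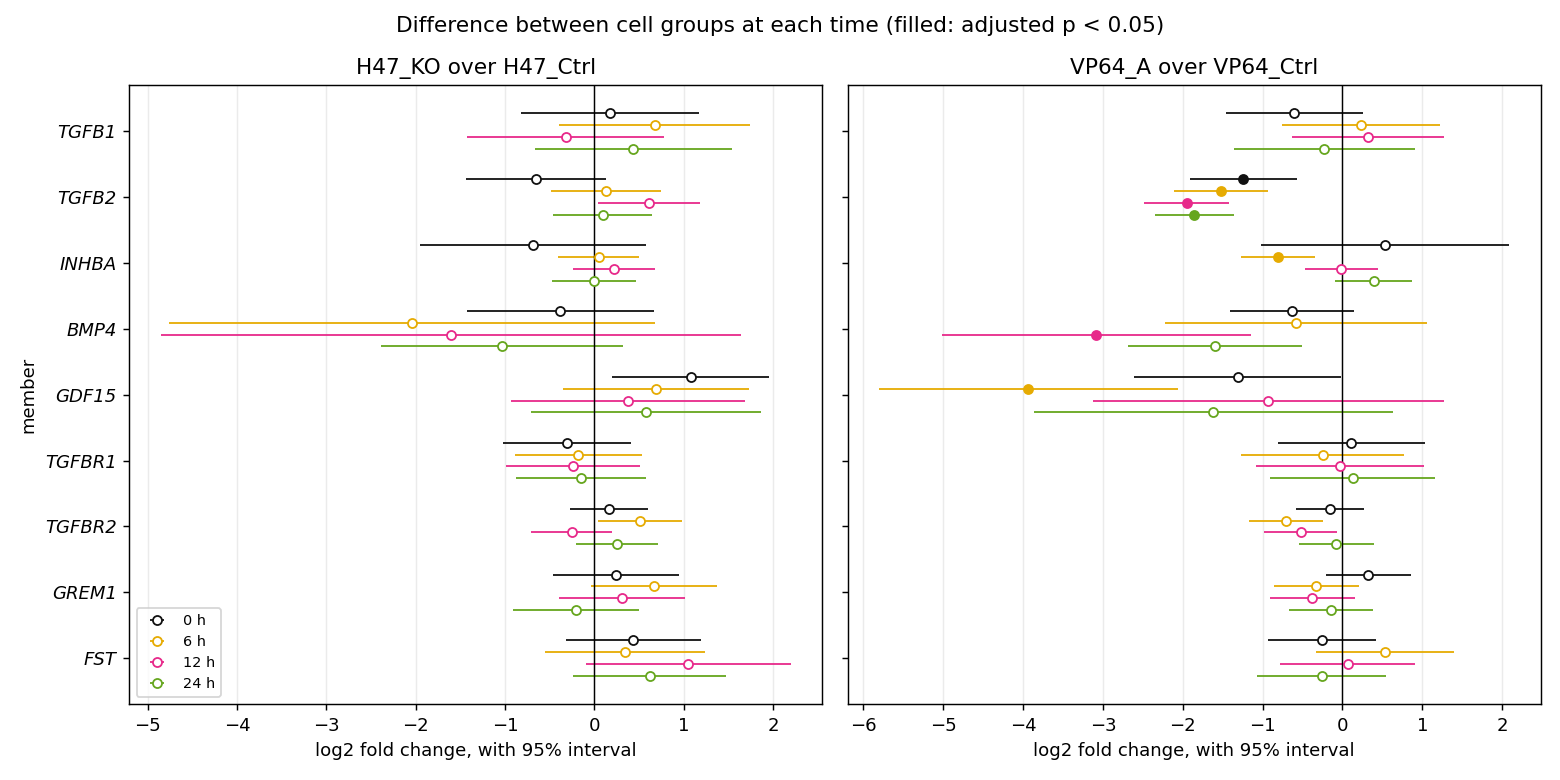
Log2 difference between the 2 groups of each arm at 0, 6, 12 and 24 h for the 9 tested members, as points with 95% confidence intervals, with filled points at an adjusted p under 0.05. The CRISPRko panel (left) holds no filled point, and in the CRISPRa panel (right) TGFB2 is filled at every time, from −1.24 to −1.95. The horizontal scales of the panels differ.

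Whether the response over time itself differed between the groups of an arm was tested by the interaction, the change from 0 h in 1 group minus that in the other. No member passed in either arm. For CRISPRko cells 0.00912%, 0% and 0% of all genes were called at the 3 times, and for CRISPRa cells 0.0911%, 0.264% and 0.209%. Members with an unadjusted p under 0.05 numbered 0, 1 and 0 for CRISPRko cells, as against 1, 1 and 0 for CRISPRa cells, and DESeq2 called none. For TGFB2 the interaction in the CRISPRa arm was −0.28 (95% interval −1.21 to 0.66), −0.71 (−1.59 to 0.17) and −0.61 (−1.47 to 0.25), so both an equal response and one 2-fold smaller in VP64_A lie within all 3 intervals. In the CRISPRko arm it was 1.26 at 12 h (0.29 to 2.23, adjusted p = 0.71), and among the alternatives it passed without the filter on low counts (1.28, 0.034) and in none of the others. Without replicate 1 of H47_Ctrl at 0 h it was 0.49. Over all genes, 63, 31 and 21 CRISPRko interactions were called without the filter and 48, 0 and 1 with DESeq2, beside 1, 0 and 0.

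The other genes of the pathway were counted from lists, to be read against the 15.9%, 19.6% and 10.3% of all genes called at 6, 12 and 24 h in H47_Ctrl. Of 26 other ligands only GDF11 passed the filter, and it was never called. Of 16 other receptors and coreceptors, 8 were tested, and 0 rose and 1 fell at 24 h in H47_Ctrl, near the share of all genes. The gene, RGMB, encodes a BMP coreceptor. RGMB changed by 1.00 ± 0.26 at 6 h and −0.79 ± 0.26 at 24 h, and the latter did not pass without replicate 2 or 3 of 0 h or replicate 1 or 3 of 24 h (0.068 to 0.27). In VP64_A RGMB was instead higher at 24 h (0.80 ± 0.26, adjusted p = 0.036). Of 15 other antagonists 7 were tested in the CRISPRko arm, and 2 rose at 24 h in H47_Ctrl, where 10.3% of all genes were called: BMPER, which binds BMPs (1.82 ± 0.31), and FSTL3, a follistatin relative (1.25 ± 0.26). BMPER was called at 24 h in all 4 groups, with 1.54 ± 0.27 in H47_KO, 3.39 ± 0.28 in VP64_Ctrl and 1.91 ± 0.29 in VP64_A.

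Of 8 tested genes for latency and release of TGF-β, 3, 4 and 4 rose and 0 fell at 6, 12 and 24 h in H47_Ctrl. Over all 10962 genes tested, 1130, 1243 and 716 rose and 614, 907 and 409 fell, so more genes rose than fell there too. For the list the median log2 fold change at 24 h was 0.56 beside 0.01 over all genes. THBS1, an activator of latent TGF-β, changed by 2.12 ± 0.37 at 24 h, LTBP2, a latent TGF-β binding protein relative, by 1.00 ± 0.20, and the procollagen proteinase BMP1 by 0.75 ± 0.17. The LTBP2 and BMP1 calls did not pass with limma on log2(TPM + 1) (0.29 and 0.23) or log2(TPM + 0.1) (0.29 and 0.21). In VP64_A 4 rose and 1 fell at 24 h, where 988 of all genes rose and 500 fell (13.6% called).

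Of 12 SMADs and corepressors tested, 7, 5 and 3 rose and 0, 0 and 1 fell at the 3 times in H47_Ctrl, where 15.9%, 19.6% and 10.3% of all genes were called. SKIL, a corepressor of SMADs, changed by 1.46 ± 0.26 at 6 h and 1.24 ± 0.26 at 24 h, and TGIF1, another corepressor, by 0.83 ± 0.17 at 24 h. Neither 24 h call passed with limma on log2(TPM + 1) (0.20 and 0.13) or log2(TPM + 0.1) (0.20 and 0.13). SMAD3, a signal carrier of TGF-β and activin, rose by 0.77 ± 0.26 at 6 h and fell by 1.58 on the log2 scale at 24 h. Of 11 pathway targets tested in the CRISPRko arm, 3, 2 and 4 rose and 3, 3 and 1 fell, beside the same shares of all genes, with the matrix genes CCN2 (1.52 ± 0.34) and TGFBI (1.10 ± 0.24) and the feedback inhibitor PMEPA1 (2.10 ± 0.48) among those higher at 24 h in H47_Ctrl. PMEPA1 did not pass with limma on log2(TPM + 1) (0.71, 0.082). All 7 IL-1 targets rose at 6 and 12 h in every group, and CXCL1, IL6 and NFKBIA changed by 9.11 ± 0.46, 6.97 ± 0.41 and 2.95 ± 0.19 at 24 h in H47_Ctrl. The IL-1 target that was lower there at 24 h was PTGS2, a prostaglandin synthase (−2.41 ± 0.26), named after its value was seen.

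**Figure D4:**
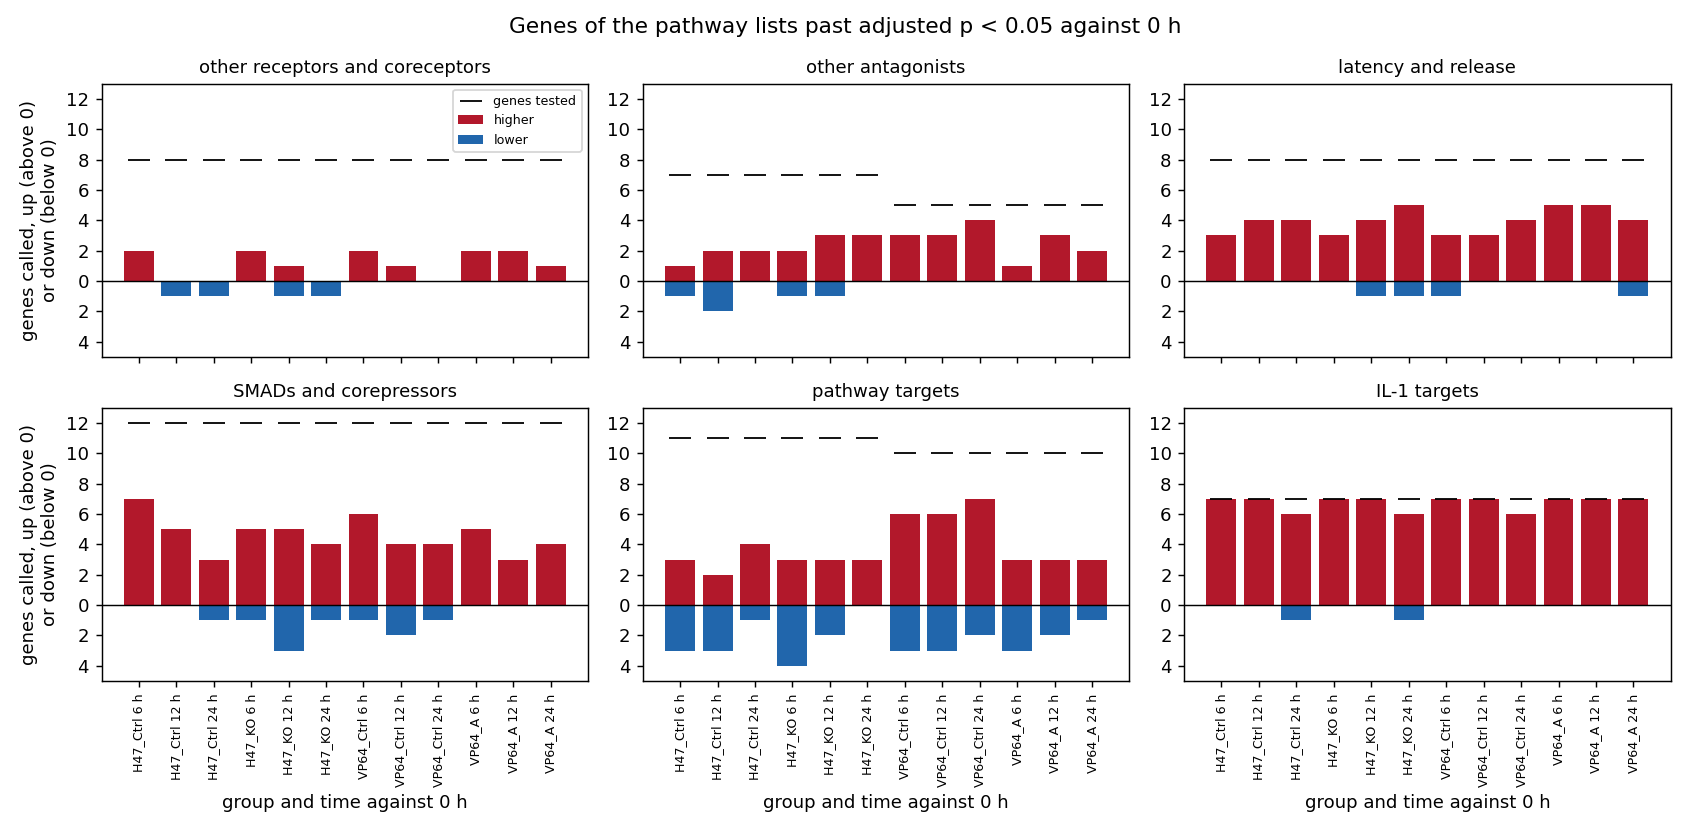
Number of genes of each of 6 pathway lists called higher (bars above 0) and lower (bars below 0) at 6, 12 and 24 h against 0 h in each group of cells, with dashes at the number of genes tested. In H47_Ctrl at 24 h, 4 of 8 latency and release genes and 6 of 7 IL-1 targets are higher, and 1 IL-1 target is lower.

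Between the groups of cells, 2, 2, 0 and 1 of the 54 tested genes of these 7 lists were called in H47_KO against H47_Ctrl at the 4 times, where 0.301%, 0.319%, 0.0821% and 0.210% of all genes were called. The calls were of TGFBI and DCN, a proteoglycan that binds TGF-β. The log2 differences of TGFBI at 0, 6 and 24 h were −1.27 ± 0.24, −1.16 ± 0.24 and −1.26 ± 0.24, and the 3 calls did not pass without some single libraries: replicate 1 of H47_Ctrl or replicate 1 or 2 of H47_KO at 0 h, replicate 1 or 3 of either group at 6 h, and replicate 2 of H47_Ctrl or replicate 2 or 3 of H47_KO at 24 h (0.064 to 0.20). The 0 h and 24 h calls did not pass either with limma on log2(TPM + 1) (0.058 and 0.16) or log2(TPM + 0.1) (0.082 and 0.19). At 12 h TGFBI was not called (−0.54 ± 0.24, 0.57), and the libraries overlapped. DCN was −1.82 ± 0.23 at 0 h and −1.60 ± 0.26 at 6 h. In VP64_A against VP64_Ctrl, 9, 4, 4 and 7 of the 51 tested genes were called, where 9.41%, 3.76%, 4.31% and 4.13% of all genes were. Of the 9 called at 0 h, 4 were among the 10 tested pathway targets (3 higher, 1 lower), 2 were latency and release genes (1 higher, 1 lower), and the others were a receptor gene and a SMAD, both lower, and PTGS2. LTBP1, which holds TGF-β in its latent complex, was higher by 2.10 ± 0.20, 1.99 ± 0.23, 1.66 ± 0.21 and 2.05 ± 0.23 at 0, 6, 12 and 24 h, and was called under all alternatives tried. TGFBI was higher by 2.34 ± 0.19, 1.08 ± 0.18, 1.23 ± 0.18 and 1.51 ± 0.19, against values below 0 at all 4 times in H47_KO. FSTL3 was higher at 6, 12 and 24 h by 0.73, 0.95 and 0.85, a call that did not pass at 6 h without any 1 of replicates 2 and 3 of VP64_A and 1, 2 and 3 of VP64_Ctrl (0.062 to 0.25), nor at 24 h without replicate 1 of VP64_Ctrl (0.056) or with limma on log2(TPM + 1) or log2(TPM + 0.1) (0.16 and 0.18). PTGS2 was higher by 1.25, 1.42, 3.15 and 4.04 at the 4 times. LTBP1, DCN and PTGS2 are outside the rule for named genes and were chosen after their values were seen.

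Finally, the genes whose course was most like each member's were listed by Pearson r over the 16 condition means, each centred on its own group of cells. The means share libraries and depth, so r is a description with no test. For INHBA they were IL1B (0.997), CXCL1 (0.995) and ST3GAL1 (0.992), and for TGFB2 SLC11A2 (0.978), ADAM19 (0.976) and LRIG1 (0.973). For BMP4 they were COA1 (0.983), MRPL43 (0.964) and ARHGAP18 (0.963), for GDF15 FOCAD (0.963), RTFDC1 (0.928) and PLSCR4 (0.926), and for FST SNAPC5 (0.950), SERGEF (0.947) and ESD (0.935). For TGFBR1 they were TJP1 (0.938), RABGGTB (0.921) and LDLRAD3 (0.910), and for TGFBR2 LOC102724250 (0.946), EIF3I (0.837) and SF3B1 (0.834). For GREM1 they were IFITM3 (0.881), SHISA5 (0.868) and PNPT1 (0.866), and for TGFB1 IRAK1 (0.852), SERINC2 (0.841) and HPCAL1 (0.840).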

How the data were processed

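RNA-seq was analysed in 48 libraries of 16 conditions, 3 each. The authors deposited estimated counts per gene, made with Salmon, and a separate deposited table of TPM. The submitters' processing notes name bcl2fastq, FastQC, Trim Galore, STAR, Salmon, DESeq2 and the build GRCh38, and versions and counting strand are not given in the sources used here. Salmon splits reads between similar transcripts, and 6.38% of estimated counts were not whole, so they were rounded. All 48 columns were matched to samples by description (0 unmatched).

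Each arm (24 libraries, 8 groups) was fitted alone with edgeR 4.0.16 (R 4.3.3): TMM scaling, filterByExpr (minimum count 10, minimum total 15), quasi-likelihood tests and Benjamini-Hochberg adjustment over all genes tested, 10962 for CRISPRko and 10980 for CRISPRa cells, with a threshold of 0.05. The SE is the log2 fold change over the square root of F. Alternatives were DESeq2 1.42.0 and its size factors, no filter, limma 3.58.1 with TPM logged after adding 1 or 0.1, only the groups compared, blocking on replicate number, and leaving out each library. On simulated data for H47_Ctrl at 12 h (10639 genes) edgeR recovered 52.1% of 2-fold and 89.6% of 4-fold changes, and 3.57% of its calls were false. For VP64_Ctrl at 12 h (10736 genes) the values were 58%, 87.8% and 4.64%. Genes changed by 2-fold and 4-fold numbered 94 and 96 in the first simulation and 100 and 98 in the second. In the data 2150 and 2938 genes were called in these comparisons, so the shares there may differ. None of 48 replicate pairs held identical values.

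The members and lists were chosen with earlier results of these data known. Named genes were the 10 members, GLIS3, up to 3 genes per list with the lowest adjusted p at 24 h in H47_Ctrl, and the 3 genes most like each member.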

Additional observations from a re-analysis of the deposited data

Results flagged for a closer look

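No member was singled out, and 4 results of genes in the pathway lists were, because the change from 0 h differed between VP64_A and VP64_Ctrl by an interaction test in edgeR. ID2 and PTGS2 were named after their values were seen. The interaction of TGFBI, a matrix gene, was −1.26 at 6 h (adjusted p = 0.044) and passed in 6 of 19 alternatives. That of ID2, a BMP target, was 1.96 at 6 h (adjusted p = 0.024) and passed in 12 of 18. That of PTGS2, a prostaglandin synthase, was 1.90 at 12 h (adjusted p = 0.023), passing in 11 of 19, and 2.79 at 24 h (adjusted p = 0.00029), passing in all 19.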

How the results depend on the processing

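Total counts of member calls stayed within 1.5 times under every alternative run, apart from 2 values. Calls between VP64_A and VP64_Ctrl fell from 7 to 4 with only the groups compared, and the interaction in the CRISPRko arm went from 0 to 1 without the filter. The split by direction moved more with limma on log2(TPM + 1). Lower calls over time went from 5 to 9 in VP64_Ctrl and from 6 to 10 in H47_KO. Leaving out single libraries gave 9 to 13 calls over time in H47_Ctrl, 12 to 13 in H47_KO, 12 to 14 in VP64_Ctrl, 10 in VP64_A, and 5 to 7 between VP64_A and VP64_Ctrl. Changes of sign, none of a called value, were GREM1 at 24 h in H47_Ctrl with limma on log2(TPM + 1) or log2(TPM + 0.1) (−0.049 in both) and in H47_KO (−0.61 without replicate 1 of 24 h to 0.014 without replicate 3), and TGFB2 between H47_KO and H47_Ctrl: at 0 h leaving out libraries (−0.93 to 0.12), at 6 h with limma on log2(TPM + 1) or log2(TPM + 0.1) (−0.26 and −0.29) or leaving out libraries (−0.065 to 0.35), and at 24 h leaving out libraries (−0.23 to 0.24). The cause was not tested. BMP4 at 24 h did not pass with limma on log2(TPM + 0.1) in H47_KO or H47_Ctrl (adjusted p = 0.083 and 0.13). With limma on log2(TPM + 0.1) the median log2 fold change of all genes in VP64_Ctrl at 6 h was −0.81, beside −0.05 with edgeR, the comparison where TPM moved it most. Libraries with the same replicate number deviated together little by the median (r = 0.0128 and 0.00644 in the CRISPRko and CRISPRa arms). Of 30 pairs in each arm, 5 and 4 had r over 0.1, up to 0.151 and 0.190. Among members the replicate block changed only the call of TGFBR1 in H47_KO at 6 h (adjusted p = 0.055), with 12 calls left in H47_KO. Over all genes it raised those called between VP64_A and VP64_Ctrl at 0 h from 1033 to 1162. Counts over all genes moved more. Genes called between H47_KO and H47_Ctrl at 0, 6, 12 and 24 h numbered 33, 35, 9 and 23, but 125, 176, 43 and 35 with DESeq2, 137, 142, 81 and 92 without the filter, 75, 54, 38 and 9 with only the groups compared, and 11, 5 and 3 at 0, 6 and 12 h with limma on log2(TPM + 1). Leaving out single libraries gave 2 to 52, 5 to 28, 4 to 8 and 6 to 104. Between VP64_A and VP64_Ctrl at 0 h it gave 491 to 1152, beside 1033, and for the change in VP64_Ctrl at 24 h 1149 to 1811, beside 1752. Genes called between VP64_A and VP64_Ctrl at 12 h numbered 473, but 271 with limma on log2(TPM + 1) and 259 with limma on log2(TPM + 0.1). Interactions in the CRISPRa arm numbered 10, 29 and 23 at 6, 12 and 24 h, but 65, 73 and 42 with DESeq2 and 106, 162 and 81 without the filter, and at 12 h 1 with only the groups compared and 44 with the block, and 0 to 13, 2 to 43 and 13 to 35 leaving out single libraries. With limma on log2(TPM + 1) calls over time rose in VP64_Ctrl from 3165 to 6177 at 6 h and from 2938 to 4711 at 12 h. They fell in H47_Ctrl from 1744 to 811 at 6 h and from 1125 to 637 at 24 h, in H47_KO from 3001 to 1899 at 12 h and from 1737 to 854 at 24 h, and in VP64_A from 1907 to 1116 at 6 h and from 2159 to 1408 at 12 h. With only the groups compared, those in H47_KO at 24 h fell from 1737 to 997. Depth limits TGFB3, TGFB1, GDF15, FST and TGFBR1, which reached at most 7, 38, 50, 69 and 82 counts in a library. BMP4 reached 137, and depth limits it mainly at 6 and 12 h. For TGFB2 depth is lowest at 0 h, the base of its changes over time. It held 45 pooled counts there in VP64_A, 124 in VP64_Ctrl, 81 in H47_KO and 115 in H47_Ctrl.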
